A study of Mus musculus with 24 samples.

Results

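Slits, semaphorins, ephrins and netrins are ligands, secreted or held on the cell surface, that steer migrating cells and growing axons by attraction or repulsion. Slits act through Robo receptors, semaphorins through plexins (with neuropilins as co-receptors for most class 3 members), ephrins through EphA and EphB receptor tyrosine kinases, and netrins through DCC, neogenin and the Unc5 receptors. Outside the nervous system the same families shape blood vessels, epithelial boundaries and gonads, and the ovary expresses many of them. Genes were taken by symbol from these families if at least 4 libraries held 10 or more counts. The rule gave 66 guidance genes, 34 coding for ligands and 32 for receptors, of the 55487 genes counted. Robo3 and Ntn5 matched by symbol but missed the count minimum.

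RNA of whole mouse ovaries was sequenced from poly(A) libraries of animals with and without a conditional knockout (cKO) of Nr5a1, the gene of the orphan nuclear receptor steroidogenic factor 1 (SF-1). The cKO carried 2 floxed Nr5a1 alleles with Amhr2-cre (Nr5a1 f/f, Amhr2-cre Tg/+), and control littermates had both floxed alleles but no cre (Nr5a1 f/f, Amhr2-cre +/+). Ovaries came from embryonic day 17.5 (ED17.5) and from postnatal days 1 and 4 (PND1, PND4), with 4 libraries for each age and genotype, 24 in all. Each library pooled RNA from 5 mice at ED17.5 and from 3 to 5 mice at the later ages. Both groups carry the floxed alleles, and the cre goes with the genotype. Amhr2-cre acts in cells that express Amhr2, so other ovarian cells keep the gene, and whole-ovary RNA averages over both.

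Values of a group are given in the order of replicate number, which runs from 1 to 4, and from 2 to 5 in PND4 controls. Total counts lay between 11361365 and 13641263 per library. Values are counts scaled to a common library size (CPM), with sizes adjusted by trimmed mean of M-values. Nr5a1 was listed at 120 to 167 CPM in the 4 ED17.5 controls, and at 73.1, 62.3, 165 and 62.1 CPM in ED17.5 cKO replicates 1 to 4. At PND1 it lay at 113 to 152 CPM in controls and 62.7 to 74.8 CPM in cKO, and at PND4 at 132 to 149 CPM and 62.5 to 82.3 CPM. The library labelled ED17.5 cKO replicate 3 therefore stood at the control level of Nr5a1. Its Amhr2 level of 57.9 CPM lay within the range of the ED17.5 cKO libraries (54.6 to 72.1 CPM) and below the controls (252 to 320 CPM). That library also held 324 CPM of Amh, a Sertoli cell hormone gene, while 0.319 to 1.46 CPM were found elsewhere at ED17.5. Cyp17a1 stood there at 441 CPM (0.717 to 3.30 CPM elsewhere at ED17.5) and Sox9 at 40.0 CPM (6.5 to 10.5 CPM). The source of these values was not tested. Amhr2, the gene named in the cre, was lower in cKO at each age. Its means at ED17.5, PND1 and PND4 were 289, 315 and 273 CPM in controls and 61.8, 67.5 and 61.7 CPM in cKO. Its log2 fold changes of -2.22, -2.23 and -2.14 were larger than those of Nr5a1 (-0.70, -0.98 and -0.99). The part of the cre allele in this fall was not tested. Zp3, an egg coat gene, split the ED17.5 libraries in both genotypes, at 6.65 to 11.8 CPM in replicates 1 and 3 and 0.0797 to 0.385 CPM in replicates 2 and 4. In ED17.5 control replicate 3, 13 stroma and theca precursor markers summed to 11770 CPM, and to between 7258 and 8085 CPM in control replicates 1, 2 and 4. PND4 control replicate 5 held 5102 CPM of the same markers, against 8074 to 9210 CPM. Raw counts of 2 libraries of a group differed by a chi-square per degree of freedom of 2.987 to 19.64 over 36 pairs. PND1 control replicate 1 stood at 15.47 to 18.31 from the other PND1 controls, which stood at 3.576 to 5.376 from each other.

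The guidance genes tended to be higher in cKO ovaries. With edgeR's quasi-likelihood test and adjusted p under 0.05 over 17435 genes, 20 of the 66 rose at ED17.5 (30.3%, against 11.1% of all genes tested) and 10 fell (15.2%, against 12.0%). At PND1, 30 rose (45.5%, against 13.2%) and 10 fell (15.2%, against 10.7%). At PND4, 18 rose (27.3%, against 12.6%) and 10 fell (15.2%, against 10.3%). Their median log2 fold change was 0.213, 0.283 and 0.129 at the 3 ages, where the median of all genes was -0.007, -0.02 and -0.001. The shares that fell thus lay nearer to the background than the shares that rose. Without the library labelled ED17.5 cKO replicate 3, 15 rose (22.7%, against 9.45% of genes) and 12 fell (18.2%, against 11.2%) at ED17.5. Epha2, Epha3, Robo1, Robo2, Unc5b and Efnb1 lost their ED17.5 call without it, and Efna3, Sema4a and Sema7a gained one; their values are given with each gene. The other 24 ED17.5 calls held without it, among them Unc5c (1.02), Nrp2 (0.88), Efnb2 (0.69), Robo4 (0.61), Efnb3 (0.41), Plxnb1 (-0.29), Sema6d (-0.70) and Efna1 (-0.73). A fit of the 8 ED17.5 libraries alone called 13 as higher. Without replicates 1 and 3 of both ED17.5 groups, the libraries with Zp3, 18 members were higher and 11 lower at ED17.5. In that smaller fit 8 ED17.5 calls ended (Robo4, Sema3g, Epha7, Plxna2, Robo1, Robo2, Unc5b and Efnb1) and 7 appeared (Efna3, Epha4, Nrp1, Sema3d, Sema4a, Sema5a and Sema7a). With 1 library left out at a time, 21 of the 30 calls at ED17.5, 29 of the 40 at PND1 and 20 of the 28 at PND4 were kept in all 24 omissions.

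**Figure D1:**
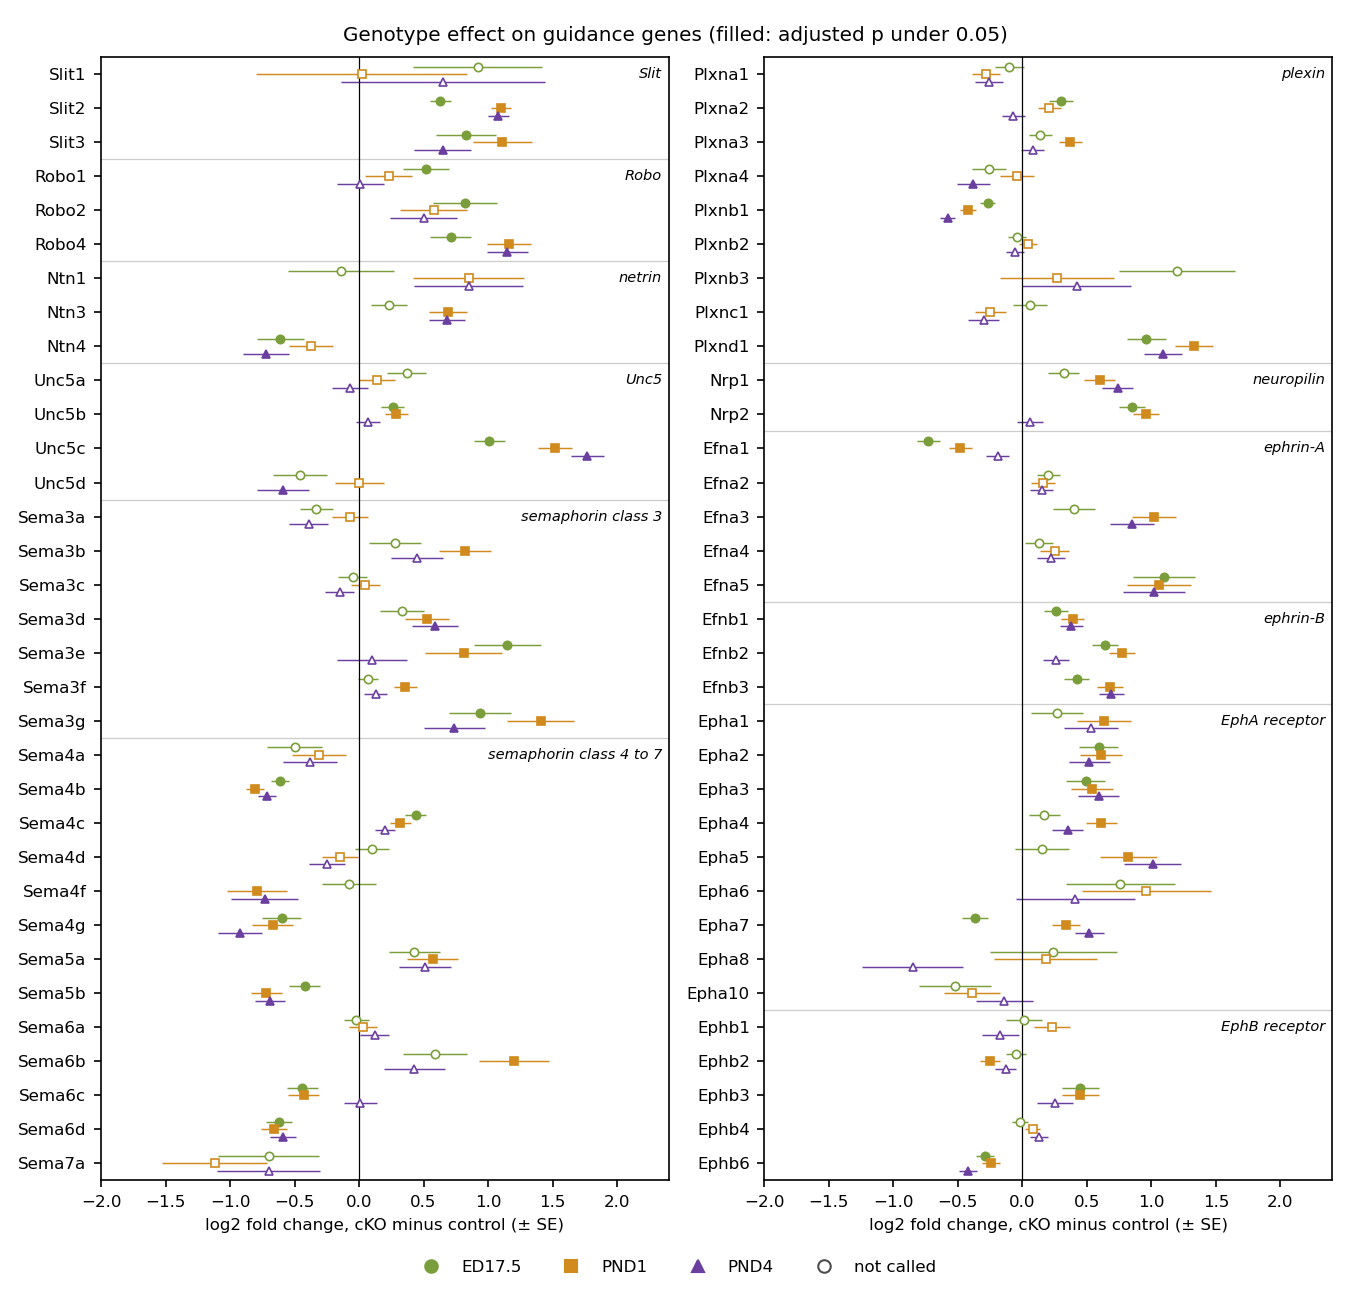
Log2 fold change of each of the 66 guidance genes in cKO against control ovaries (x axis, bars are SE, 4 libraries per group) at ED17.5 (circles), PND1 (squares) and PND4 (triangles), grouped by family. Filled symbols have an adjusted p under 0.05 over all genes: ephrin-B, Slit and class 3 semaphorin genes that are filled lie to the right of 0, and 5 or 6 filled members of semaphorin classes 4 to 7 lie to the left at each age.

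Of the 66 members, 11 rose at all 3 ages, namely Slit2, Slit3, Robo4, Unc5c, Plxnd1, Sema3g, Efna5, Efnb1, Efnb3, Epha2 and Epha3, where 971 of all genes did (5.57%). At all 3 ages 6 fell, namely Sema4b, Sema4g, Sema5b, Sema6d, Plxnb1 and Ephb6, against 808 of all genes (4.63%). Leaving out each of the 24 libraries in turn, 6 of the 11 kept the call at every age (Efna5, Efnb3, Plxnd1, Robo4, Slit2 and Unc5c), as did 4 of the 6 (Plxnb1, Sema4b, Sema4g and Sema6d). Exons of 17 members overlap another annotated gene, and the strand setting of the counting is not given in the sources used here, so reads of such pairs may not be told apart. Epha7 passed the test in opposite directions at different ages, a pattern of 74 genes in all (0.424%). A further 20 members passed at no age, a state shared with 61.1% of all genes. In whole ovaries, fewer cells of a type and less RNA per cell cannot be told apart, for these genes and for the cell type markers given beside them.

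The promoters of 57 of the 66 members were found among RefSeq's windows of 250 bases before to 50 after a gene's start (build GRCm38.p6). SF-1 is known to bind an extended nuclear receptor site with the letters CAAGGTCA, which were searched on both strands. Of the members' 73 windows, 1 held them (1.37%), and of all 32851 windows 512 did (1.56%). The window belonged to Sema4b, which was among the genes that fell at all 3 ages. Sema4b has 2 windows, and the other lacked the letters. The window with the letters is shown with the windows of Slit2 and Unc5c, the members with the smallest p among those that rose at PND1 and PND4, which lacked these letters. The starts used for the Slit2 and Unc5c windows lie 17 and 348 bases from the gene starts in the GENCODE annotation. The Sema4b window is chr7:80186620-80186919, that of Slit2 chr5:47982905-47983204 and that of Unc5c chr3:141465314-141465613, each on the plus strand and written 5′ to 3′. Capitals mark the searched letters, which begin 244 bases before the Sema4b start.
Sema4b: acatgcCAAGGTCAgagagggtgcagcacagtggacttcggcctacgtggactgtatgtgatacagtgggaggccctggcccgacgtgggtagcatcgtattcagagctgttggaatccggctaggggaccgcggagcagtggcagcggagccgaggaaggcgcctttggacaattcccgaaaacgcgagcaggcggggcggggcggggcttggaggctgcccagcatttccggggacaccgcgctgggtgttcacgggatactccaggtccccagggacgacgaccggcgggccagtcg
Slit2: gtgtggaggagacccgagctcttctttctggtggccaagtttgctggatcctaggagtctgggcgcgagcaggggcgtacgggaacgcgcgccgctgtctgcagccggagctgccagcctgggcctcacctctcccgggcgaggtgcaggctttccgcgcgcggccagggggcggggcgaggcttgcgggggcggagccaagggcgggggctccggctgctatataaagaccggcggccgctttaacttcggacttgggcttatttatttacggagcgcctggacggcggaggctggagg
Unc5c: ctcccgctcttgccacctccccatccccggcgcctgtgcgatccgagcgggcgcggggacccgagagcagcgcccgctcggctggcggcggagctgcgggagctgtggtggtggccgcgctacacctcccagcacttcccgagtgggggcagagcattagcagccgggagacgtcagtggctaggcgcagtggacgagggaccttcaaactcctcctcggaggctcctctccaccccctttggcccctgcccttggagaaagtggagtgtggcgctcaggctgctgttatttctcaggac
The 3 windows had 65.3%, 68.0% and 68.3% G and C in that order, close to the median of the members' windows (64.3%) and above that of all windows (52.7%). A match of letters is a description of the sequence, and no binding was measured here.

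Slit2 and Slit3 code for secreted ligands best known for repelling axons at the midline, and both rose at every age. Slit2 (ENSMUSG00000031558, GRCm38 chromosome 5, 47983138 to 48307733, plus strand) was at 264, 267, 337 and 255 CPM in ED17.5 controls and at 439, 395, 449 and 449 CPM in cKO. At PND1 the controls held 108, 137, 123 and 133 CPM and the cKO libraries 268, 269, 271 and 266 CPM. At PND4 the values were 114, 127, 121 and 105 CPM in controls and 238, 229, 256 and 262 CPM in cKO. Each cKO library thus lay above each control of its age. On the log2 scale the fold changes were 0.63 ± 0.08 (SE, adjusted p = 3.09e-06, edgeR), 1.10 ± 0.08 (5.03e-10) and 1.08 ± 0.08 (6.36e-10). Without the library labelled ED17.5 cKO replicate 3 the ED17.5 value was 0.60. Slit3 changed by 0.83 ± 0.23, 1.11 ± 0.23 and 0.65 ± 0.22 with adjusted p of 0.011, 0.000918 and 0.0393 (edgeR). In PND4 controls it was at 26.1, 25.9, 26.8 and 15.9 CPM, the last in replicate 5. Without that library its PND4 value was 0.50 (adjusted p = 0.144, edgeR), and 8 of 24 omissions ended the PND4 call. Without the library labelled ED17.5 cKO replicate 3 the ED17.5 value of Slit3 was 0.68 and only just passed (adjusted p = 0.0496, edgeR). Slit1 was close to the limit of detection, at 0 to 1.34 CPM over the 24 libraries, and passed no test.

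Of the 3 Robo receptors, 1 was called at all ages. Robo4, a receptor known from blood vessel endothelium, was at 15.0, 13.1, 15.5 and 16.0 CPM in ED17.5 controls and at 23.6, 23.5, 29.4 and 21.2 CPM in cKO. At PND1 it was at 9.28, 9.11, 12.7 and 8.59 CPM against 23.9, 19.2, 22.8 and 22.9 CPM, and at PND4 at 12.6, 13.0, 12.4 and 7.08 CPM against 32.5, 21.8, 24.9 and 21.4 CPM. Control and cKO values did not overlap at any age. Its log2 fold changes were 0.71 ± 0.16, 1.16 ± 0.17 and 1.15 ± 0.16, with adjusted p of 0.00189, 7.07e-06 and 7.96e-06 (edgeR). Without ED17.5 replicates 1 and 3 of both groups the ED17.5 value of Robo4 was 0.63 and no longer passed (adjusted p = 0.0638). Robo1 and Robo2, best known as Slit receptors on axons, rose at ED17.5 by 0.52 ± 0.18 and 0.82 ± 0.25 (adjusted p = 0.0403 and 0.0225, edgeR). Both calls ended without the library labelled ED17.5 cKO replicate 3, at 0.28 (adjusted p = 0.226) and 0.25 (0.0778). Robo2 was at 111 CPM in that library and at 36.4 to 40.4 CPM in the other 3 cKO libraries, above the 28.8 to 36.1 CPM of the controls. At PND1 and PND4 the Robo2 values were 0.58 ± 0.26 and 0.50 ± 0.26 and did not pass (adjusted p = 0.118 and 0.186). Leaving that ED17.5 library out of the shared model gave 0.57 (adjusted p = 3.95e-05) and 0.49 (0.00024) for the same later libraries, with no overlap between groups at either age.

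Unc5c, a netrin receptor known for repulsion, had the largest rise of all members at PND1 and PND4. It was at 73.5, 79.1, 108 and 61.9 CPM in ED17.5 controls and at 176, 153, 158 and 165 CPM in cKO. The PND1 values were 27.7, 35.8, 33.4 and 35.4 CPM against 92.6, 99.9, 92.5 and 94.9 CPM, and the PND4 values 28.9, 31.1, 28.6 and 24.5 CPM against 83.8, 87.1, 104 and 110 CPM. The lowest cKO library lay well above the highest control at each age. These are log2 fold changes of 1.01 ± 0.12, 1.52 ± 0.13 and 1.77 ± 0.13 (2.02-, 2.87- and 3.40-fold) with adjusted p of 1.31e-06, 3.94e-09 and 5.39e-10 (edgeR). Unc5c shares 118 exonic bases with Gm15688, an antisense gene. Unc5b, an endothelial netrin receptor, rose by 0.26 ± 0.09 at ED17.5 and 0.29 ± 0.09 at PND1, and was at 0.07 ± 0.09 at PND4. The ED17.5 call on Unc5b ended without the library labelled ED17.5 cKO replicate 3 (0.23, adjusted p = 0.0882, edgeR) and in 4 other omissions, and its PND1 call without PND1 control replicate 2 (0.0612). Unc5d was at -0.59 ± 0.20 at PND4 (adjusted p = 0.0365, edgeR) and lost that call in 5 of 24 omissions, among them PND4 control replicate 5 (0.125) and replicate 4 (0.146). Unc5a passed at no age.

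Of the netrin ligands, Ntn3 rose after birth by 0.69 ± 0.15 and 0.68 ± 0.14 (adjusted p = 0.000771 and 0.000854, edgeR). Ntn3 shares 139 exonic bases with BC028777 on the opposite strand and 89 with Tbc1d24 on its own. Ntn4, a basement membrane netrin, fell by 0.61 on the log2 scale at ED17.5 and by 0.72 at PND4 (SE 0.18 at both ages, adjusted p = 0.0127 and 0.00424, edgeR), and was at -0.37 ± 0.17 at PND1. The ED17.5 call on Ntn4 ended in 2 of 24 omissions, at -0.44 without ED17.5 control replicate 4 (adjusted p = 0.0836, edgeR). Ntn1, the founding member, passed at no age. PND4 controls held 5.45, 10.2, 4.54 and 3.06 CPM and cKO 13.2, 9.24, 9.70 and 10.3 CPM, for 0.85 ± 0.42 (adjusted p = 0.16, edgeR). At PND1 the groups did not overlap (2.88 to 6.26 against 6.32 to 10.07 CPM), for 0.85 ± 0.43 (adjusted p = 0.17, edgeR). Ntn1 stood at 21.8 CPM in ED17.5 control replicate 3 and at 4.76 to 6.33 CPM in the other ED17.5 controls, and the spread is shared over the model.

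**Figure D2:**
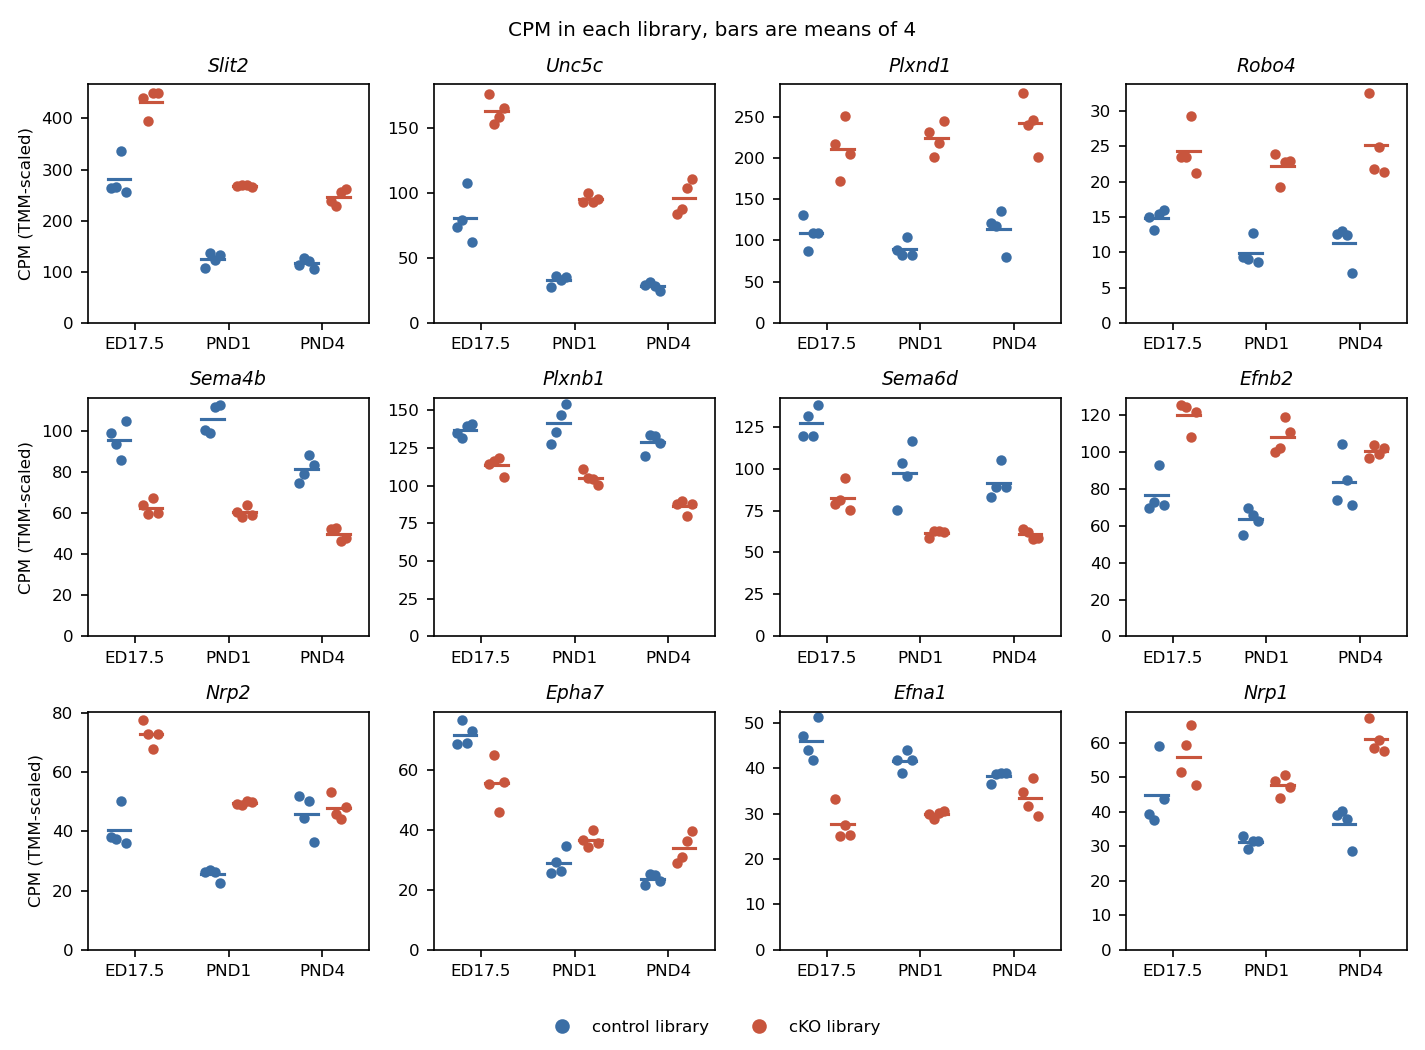
CPM (y axis, from 0) of 12 guidance genes in each control (blue) and cKO (red) library at ED17.5, PND1 and PND4, with bars at the mean of 4 libraries. Slit2, Unc5c, Plxnd1 and Robo4 lie higher in every cKO library, Sema4b, Plxnb1 and Sema6d lower, Nrp2 converges at PND4, and Epha7 is lower in cKO at ED17.5 and higher on average after birth.

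Among the plexins, which are the signalling receptors of semaphorins, Plxnd1 rose and Plxnb1 fell at all 3 ages. Plxnd1, known from endothelium as the receptor of Sema3e, was at 130, 86.5, 109 and 109 CPM in ED17.5 controls and at 216, 172, 251 and 205 CPM in cKO. At PND1 the values were 87.7, 81.9, 104 and 82.7 CPM against 231, 201, 218 and 244 CPM, and at PND4 121, 117, 136 and 80.0 CPM against 279, 240, 246 and 201 CPM. No cKO library fell within the range of the controls. The log2 fold changes were 0.96 ± 0.15, 1.33 ± 0.15 and 1.09 ± 0.15 (adjusted p = 4.67e-05, 5.46e-07 and 7.11e-06, edgeR), and 0.86 at ED17.5 without the library labelled ED17.5 cKO replicate 3. Plxnb1, a receptor of Sema4d, was at 135, 132, 140 and 141 CPM against 115, 116, 119 and 106 CPM at ED17.5. It was at 128, 135, 147 and 154 CPM against 111, 105, 104 and 101 CPM at PND1, and at 120, 133, 133 and 128 CPM against 87.9, 89.7, 80.2 and 87.6 CPM at PND4. Here each cKO library lay below each control. Its log2 fold changes were -0.27 ± 0.06, -0.42 ± 0.06 and -0.58 ± 0.06 (adjusted p = 0.00174, 5.52e-06 and 8.64e-08, edgeR). Plxnb1 shares 257 exonic bases with Gm7628 on the opposite strand.

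Of the other 7 plexins, Plxna2 rose at ED17.5 (0.30 ± 0.09), Plxna3 rose at PND1 (0.37 ± 0.09) and Plxna4 was called lower at PND4 (-0.38 ± 0.13, adjusted p = 0.0457, edgeR). The Plxna4 call ended in 9 of 24 omissions, among them PND4 control replicate 5 (adjusted p = 0.148). Plxna3 in PND1 ovaries was at 36.7, 37.6, 42.7 and 40.5 CPM in controls and 51.1, 44.6, 54.4 and 53.2 CPM in cKO, without overlap. The Plxna2 call ended without ED17.5 replicates 1 and 3 of both groups (0.31, adjusted p = 0.112). Plxna1, Plxnb2, Plxnb3 and Plxnc1 passed at no age with all libraries. Plxna1 was at -0.28 at PND1 (adjusted p = 0.0668) and -0.26 at PND4 (0.0915), and passed as lower at both ages without the library labelled ED17.5 cKO replicate 3 (-0.29 and -0.26, adjusted p = 0.0273 and 0.0463, edgeR). It shares 970 exonic bases with Gm26811 on the opposite strand.

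The neuropilins bind class 3 semaphorins and also vascular endothelial growth factors. Both were called higher at PND1, Nrp2 also at ED17.5 and Nrp1 also at PND4. Nrp2 was at 38.2, 37.4, 50.2 and 36.0 CPM in ED17.5 controls and at 77.7, 73.0, 67.8 and 72.9 CPM in cKO. At PND1 it was at 26.4, 26.9, 26.4 and 22.6 CPM against 49.3, 49.1, 50.2 and 50.003 CPM. At PND4 the controls held 52.0, 44.5, 50.3 and 36.4 CPM and the cKO libraries 53.3, 45.9, 44.2 and 48.3 CPM, and the groups overlapped. The log2 fold changes were 0.85 ± 0.10, 0.96 ± 0.10 and 0.06 ± 0.10, with adjusted p of 7.7e-07, 1.18e-07 and 0.715 (edgeR). The change in this effect from PND1 to PND4 was -0.89 ± 0.14 (adjusted p = 0.00609 for the interaction, edgeR), and Nrp2 was the only member among the 0.103% of genes that passed that test. Nrp1 changed by 0.32 ± 0.12, 0.60 ± 0.12 and 0.74 ± 0.12, of which the last 2 passed (adjusted p = 0.0565, 0.000492 and 4.36e-05, edgeR), but its effect was not shown to differ between ages. The ED17.5 value of Nrp1 passed without ED17.5 replicates 1 and 3 of both groups (0.41, adjusted p = 0.0305). At PND4 it was at 39.0, 40.2, 37.8 and 28.6 CPM in controls and 67.1, 58.4, 60.7 and 57.7 CPM in cKO.

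The secreted class 3 semaphorins rose where they passed with all libraries, where none of the 7 was called lower. Without the library labelled ED17.5 cKO replicate 3, Sema3a was called lower at PND4 (-0.39, adjusted p = 0.0412, edgeR, against 0.0566 with it). At ED17.5, 2 passed (Sema3e and Sema3g), with 5 at PND1 (Sema3b, Sema3d, Sema3e, Sema3f and Sema3g) and 2 at PND4 (Sema3d and Sema3g). Sema3g, an endothelial semaphorin, was at 6.65, 5.45, 5.84 and 4.92 CPM in PND1 controls and 14.6, 13.3, 17.6 and 15.5 CPM in cKO, all above the controls. Its log2 fold changes were 0.94 ± 0.24, 1.41 ± 0.26 and 0.74 ± 0.24 (adjusted p = 0.00712, 0.000298 and 0.0313, edgeR). In PND4 controls Sema3g was at 18.0, 15.6, 20.8 and 5.68 CPM, and its PND4 call ended without cKO replicate 1 (0.55, adjusted p = 0.122), with 4 of the 24 omissions losing it. Its ED17.5 call ended without ED17.5 replicates 1 and 3 of both groups (0.87, adjusted p = 0.141). Sema3b, Sema3d and Sema3f rose at PND1 by 0.82 ± 0.20, 0.53 ± 0.17 and 0.36 ± 0.09, and Sema3d at PND4 by 0.59 ± 0.18. The Sema3d call ended in 4 of 24 omissions at PND1 (0.39 without PND1 control replicate 1, adjusted p = 0.11, edgeR) and in 1 at PND4 (0.46 without PND4 cKO replicate 4, 0.0864). Sema3e, the ligand of Plxnd1, changed by 1.15 ± 0.26, 0.81 ± 0.30 and 0.10 ± 0.27 and passed at the first 2 ages. The PND1 call on Sema3e ended in 8 of 24 omissions, up to an adjusted p of 0.138 without PND1 cKO replicate 4, and was at 0.0524 without the library labelled ED17.5 cKO replicate 3. Sema3c passed at no age, and, at 68.9, 71.0, 80.9 and 62.1 CPM in ED17.5 controls and 71.5, 61.1, 76.9 and 63.1 CPM in cKO, overlapped throughout.

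The membrane-bound semaphorins of classes 4 to 7 were the family with the most falls. Of 13 genes, 5 fell and 1 rose at ED17.5, 6 fell and 3 rose at PND1, and 5 fell and none rose at PND4, with medians of -0.42, -0.43 and -0.38. Sema4b, with a promoter window shown above, was at 99.1, 93.6, 85.6 and 105 CPM in ED17.5 controls and at 63.7, 59.7, 67.3 and 59.9 CPM in cKO. The PND1 values were 100, 98.7, 112 and 113 CPM against 60.4, 57.9, 63.7 and 59.0 CPM, and the PND4 values 74.7, 78.8, 88.2 and 83.2 CPM against 52.5, 52.5, 46.2 and 47.8 CPM. Groups were separate at each age. The log2 fold changes were -0.61 ± 0.07, -0.81 ± 0.07 and -0.71 ± 0.07, with adjusted p of 5.08e-07, 3.94e-09 and 4.72e-08 (edgeR). Without the library labelled ED17.5 cKO replicate 3 the ED17.5 value was -0.65.

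Sema6d, a transmembrane semaphorin that binds Plxna1, was at 119, 131, 119 and 138 CPM in ED17.5 controls and 78.8, 81.0, 94.5 and 75.2 CPM in cKO. It was at 75.3, 103, 95.5 and 116 CPM against 58.8, 62.6, 62.8 and 62.0 CPM at PND1, and at 83.1, 88.8, 105 and 89.1 CPM against 64.1, 62.2, 58.1 and 58.7 CPM at PND4. The 3 log2 fold changes were -0.62 ± 0.10, -0.66 ± 0.10 and -0.59 ± 0.10 (adjusted p = 2.87e-05, 9.45e-06 and 5.53e-05, edgeR), and no group overlapped its control. Sema5b changed by -0.42 ± 0.12, -0.72 ± 0.12 and -0.69 ± 0.12 (adjusted p = 0.0105, 5.26e-05 and 0.000157, edgeR), and its ED17.5 call ended without ED17.5 cKO replicate 4 (-0.35, 0.051). Its PND4 values were 39.5, 46.0, 49.3 and 52.5 CPM in controls and 26.1, 30.6, 32.1 and 27.1 CPM in cKO. Sema4g changed by -0.60 ± 0.15, -0.67 ± 0.16 and -0.92 ± 0.17 and passed at each age. At PND1 its groups overlapped, with control replicate 1 at 12.2 CPM, the other controls at 21.0 to 27.0 CPM and cKO at 12.4 to 14.3 CPM. Sema6c fell by 0.44 and 0.43 on the log2 scale at ED17.5 and PND1 (SE 0.12 for both) and was at 0.01 ± 0.13 at PND4. Sema4c was called higher, at 0.44 ± 0.08 and 0.32 ± 0.08 before and just after birth (adjusted p = 0.000303 and 0.00569, edgeR), and Sema6b rose at PND1 by 1.20 ± 0.27. Sema4c shares 334 exonic bases with D430040D24Rik on the opposite strand. Sema4f, at 0.995 to 7.09 CPM, was called lower at PND1 (-0.79 ± 0.23) and PND4 (-0.73 ± 0.26, adjusted p = 0.046, edgeR), and 1 of the 24 omissions ended the PND1 call (without PND1 cKO replicate 3, 0.0562) and 12 the PND4 call. Sema5a was called higher at PND1 (0.57 ± 0.20, adjusted p = 0.0499, edgeR) and lost the call in 17 of 24 omissions, while without the library labelled ED17.5 cKO replicate 3 it passed at PND4 (0.51, adjusted p = 0.0355). Sema4d and Sema6a passed at no age.

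Sema7a, a lipid-anchored semaphorin known to act through integrins, shows how far 1 library can decide a call. It was at 42.4, 40.1, 25.2 and 53.6 CPM in ED17.5 controls and at 15.3, 13.1, 58.3 and 12.3 CPM in cKO, where the 58.3 CPM belong to the library labelled ED17.5 cKO replicate 3. With all libraries its log2 fold changes of -0.70 ± 0.39, -1.12 ± 0.41 and -0.70 ± 0.40 passed at no age (adjusted p = 0.213, 0.0542 and 0.239, edgeR). Without that library they were -1.58, -1.13 and -0.71, and all 3 passed (adjusted p = 7.88e-05, 0.00066 and 0.0229), since the spread is shared over the model. Sema4a also passed at ED17.5 without it (-0.78, adjusted p = 0.00475).

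**Figure D3:**
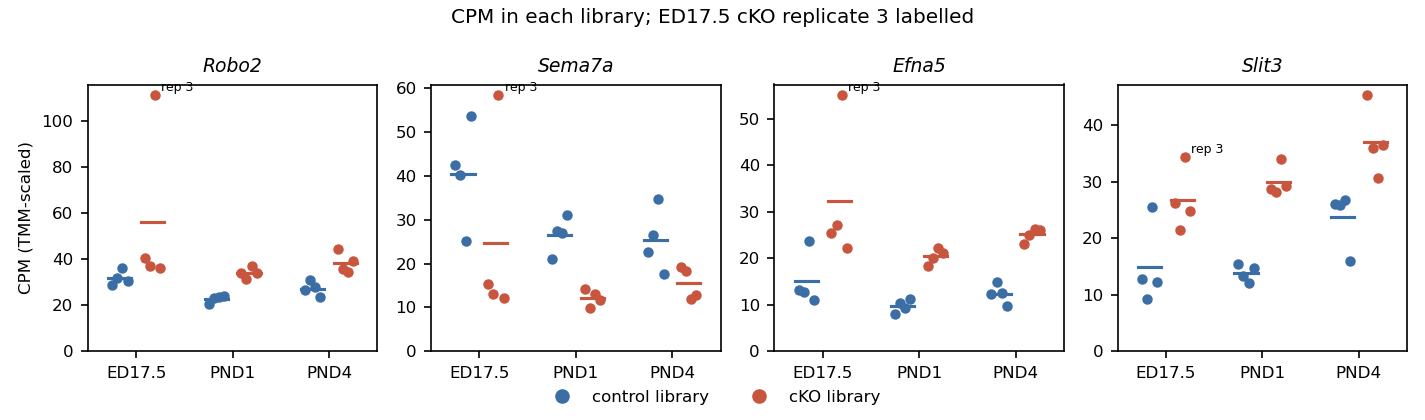
CPM (y axis, from 0) of Robo2, Sema7a, Efna5 and Slit3 in each control (blue) and cKO (red) library at the 3 ages, bars at the mean of 4, with the library labelled ED17.5 cKO replicate 3 marked. That library lies at 111 CPM for Robo2 and 58.3 CPM for Sema7a, apart from the other 3 cKO libraries.

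Ephrin-B ligands, transmembrane proteins that can signal back into the cell that carries them, rose together. All 3 passed at ED17.5 and PND1, and Efnb1 and Efnb3 passed at PND4. Efnb2, known as the marker of arterial endothelium, was at 69.6, 73.2, 93.2 and 71.1 CPM in ED17.5 controls and at 126, 124, 108 and 122 CPM in cKO. At PND1 the values were 55.1, 69.9, 66.03 and 62.8 CPM against 100, 102, 119 and 111 CPM, and at PND4 74.1, 104, 85.0 and 71.3 CPM against 97.1, 104, 98.8 and 102 CPM, where they overlapped. Its log2 fold changes were 0.64 ± 0.10, 0.77 ± 0.10 and 0.26 ± 0.10 (adjusted p = 4.87e-05, 3.49e-06 and 0.0681, edgeR). Efnb3 was at 37.7, 36.0, 49.0 and 35.9 CPM against 53.6, 51.0, 53.7 and 53.7 CPM at ED17.5, and at 20.9, 22.5, 27.4 and 20.3 CPM against 33.5, 36.8, 39.5 and 36.8 CPM at PND4, without overlap. It changed by 0.42 ± 0.10, 0.68 ± 0.10 and 0.69 ± 0.10 (adjusted p = 0.00287, 1.4e-05 and 1.63e-05, edgeR). Efnb1 changed by 0.26 ± 0.09, 0.39 ± 0.09 and 0.38 ± 0.09, and its ED17.5 call ended in 5 of 24 omissions, among them the library labelled ED17.5 cKO replicate 3 (0.16, adjusted p = 0.183, edgeR).

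The lipid-anchored ephrin-A ligands did not move together. Efna1, Efna3 and Efna4 lie side by side on chromosome 3 between 89271733 and 89338028 on the GRCm38 build, where Efna1 was called lower, Efna3 higher and Efna4 neither. Efna1 was at 47.2, 43.9, 41.8 and 51.2 CPM in ED17.5 controls and at 33.3, 25.0, 27.5 and 25.3 CPM in cKO. It was at 41.8, 39.0, 44.1 and 41.8 CPM against 30.0, 28.8, 30.2 and 30.5 CPM at PND1, and at 36.4, 38.7, 38.9 and 38.9 CPM against 34.7, 31.7, 37.8 and 29.4 CPM at PND4. Groups were separate before PND4 and overlapped then. Efna1 thus had log2 fold changes of -0.73 ± 0.09, -0.48 ± 0.09 and -0.19 ± 0.09 (adjusted p = 8.93e-07, 0.000131 and 0.11, edgeR). Efna3, which lies 32756 bases from Efna1, changed by 0.40 ± 0.16, 1.02 ± 0.17 and 0.85 ± 0.17, and the last 2 passed (adjusted p = 6.19e-05 and 0.000701, edgeR). Without the library labelled ED17.5 cKO replicate 3 the ED17.5 value of Efna3 passed too (0.51, adjusted p = 0.0255). Efna3 shares 344 exonic bases with Gm15998 on the opposite strand. Efna4, 10424 bases from Efna3 and with 168 exonic bases shared with 4731419I09Rik on the opposite strand, was at 0.13 ± 0.11, 0.25 ± 0.11 and 0.22 ± 0.11 and passed at no age, nor did Efna2. Efna5 rose by 1.10 ± 0.24, 1.06 ± 0.25 and 1.02 ± 0.24 (adjusted p = 0.00174, 0.00262 and 0.00346, edgeR). The ED17.5 value of Efna5 was 0.71 without the library labelled ED17.5 cKO replicate 3, in which it reached 55.1 CPM against 22.1 to 27.1 CPM in the other cKO libraries.

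EphA receptors, which bind mainly ephrin-A ligands, rose after birth in most cases where they passed. Of 9, Epha2 and Epha3 rose and Epha7 fell at ED17.5, 6 rose at PND1 (Epha1, Epha2, Epha3, Epha4, Epha5 and Epha7) and 5 at PND4, all but Epha1 of the same. Epha7 passed in both directions. It was at 68.7, 76.8, 68.9 and 72.9 CPM in ED17.5 controls and at 55.2, 65.0, 46.1 and 56.0 CPM in cKO, at 25.7, 29.4, 26.3 and 34.7 CPM against 36.5, 34.2, 40.0 and 35.7 CPM at PND1, and at 21.6, 25.4, 24.9 and 23.1 CPM against 29.1, 31.1, 36.4 and 39.7 CPM at PND4. All cKO libraries lay below the controls at ED17.5 and above them at PND4, with 1 control within the cKO range at PND1. The log2 fold changes were -0.37 ± 0.10, 0.34 ± 0.11 and 0.52 ± 0.11 (adjusted p = 0.00923, 0.0219 and 0.000774, edgeR). Without the library labelled ED17.5 cKO replicate 3 the ED17.5 value was -0.29 (adjusted p = 0.0399), and the PND1 call ended in 3 of 24 omissions, among them PND1 cKO replicate 3 (0.29, adjusted p = 0.0811). Without ED17.5 replicates 1 and 3 of both groups the ED17.5 value of Epha7 was -0.30 and did not pass (adjusted p = 0.137). Epha5, a low gene at 0.874 to 3.85 CPM, rose by 0.82 ± 0.22 and 1.01 ± 0.22 at PND1 and PND4. Epha4, which binds ephrins of both classes, rose by 0.61 ± 0.12 at PND1 and 0.35 ± 0.12 at PND4 (adjusted p = 0.0373, edgeR), the latter call ending in 7 of 24 omissions. Epha6, Epha8 and Epha10 were low and passed at no age. Epha2 and Epha3 changed by 0.59 ± 0.15 and 0.49 ± 0.15 at ED17.5, and by 0.39 (adjusted p = 0.0511, edgeR) and 0.29 (0.137) without the library labelled ED17.5 cKO replicate 3. Epha1, which shares 236 exonic bases with Zyx on the opposite strand, lost its PND1 call in 5 of 24 omissions (up to 0.108), Epha3 its PND1 call in 1 (0.0507), and Epha2 its PND4 call in 2 (up to 0.0694).

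EphB receptors, which bind mainly ephrin-B ligands, were called in both directions. Ephb4, the venous partner of Efnb2 and the highest of the EphB genes, was at 238, 228, 243 and 241 CPM in ED17.5 controls and 234, 241, 234 and 227 CPM in cKO, and its log2 fold changes of -0.02 ± 0.06, 0.08 ± 0.06 and 0.13 ± 0.07 did not pass. Ephb6, a member without kinase activity, fell at each age, by 0.29, 0.24 and 0.42 on the log2 scale (SE 0.07, adjusted p = 0.00457, 0.0178 and 9.33e-05, edgeR). Its PND4 values were 103, 95.2, 103 and 94.8 CPM in controls and 76.9, 76.5, 77.8 and 64.6 CPM in cKO, without overlap. Ephb3 rose at ED17.5 and PND1 by 0.45 at both ages (SE 0.14), Ephb2 was called lower at PND1 (-0.25 ± 0.08, adjusted p = 0.018, edgeR), and Ephb1 passed at no age. The Ephb3 calls ended in 5 of 24 omissions at ED17.5 (0.35 without ED17.5 control replicate 1, adjusted p = 0.0928, edgeR) and in 3 at PND1 (0.40 without PND1 cKO replicate 4, 0.0721). At PND1 the Ephb2 call ended in 3 (-0.20 without PND1 control replicate 3, 0.0742) and the Ephb6 call in 2 (-0.21 without PND1 cKO replicate 2, 0.0607).

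A total of 6 members had a genotype effect at PND4 that differed from that at ED17.5, or 9.09% against 4.77% of all genes. The effect rose between these ages in Epha7 (0.89 ± 0.15, adjusted p = 0.000694), Unc5c (0.75 ± 0.17, 0.0127), Efna1 (0.53 ± 0.12, 0.011) and Slit2 (0.45 ± 0.11, 0.022), all from edgeR. It fell in Nrp2 (-0.78 ± 0.14, 0.00143) and Plxnb1 (-0.31 ± 0.08, 0.0315). For Efna1 the rise means a smaller deficit, and for Plxnb1 the fall means a larger one. From ED17.5 to PND1, Epha7 (0.71 ± 0.15, adjusted p = 0.0114, edgeR) and Slit2 (0.47 ± 0.11, 0.0307) passed, 3.03% of members against 1.86% of genes. The Slit2 call from ED17.5 to PND1 ended in 7 of 24 omissions. Among them, the difference was 0.37 without ED17.5 control replicate 3 (adjusted p = 0.0745, edgeR), a library with a high stroma marker sum, and 0.41 without PND1 control replicate 1 (0.0638). From ED17.5 to PND4 the call on Slit2 ended in 4 of 24 omissions (up to an adjusted p of 0.0656) and that on Plxnb1 in 7 (up to 0.0804). Without ED17.5 replicates 1 and 3 of both groups, Epha7 (0.61, adjusted p = 0.0508) and Slit2 (0.38, 0.113) no longer passed from ED17.5 to PND1, nor did Slit2 (0.37, 0.0971) and Plxnb1 (-0.30, 0.152) from ED17.5 to PND4, while Epha7, Unc5c, Efna1 and Nrp2 did.

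In controls, guidance genes were lower just after birth than before it. From ED17.5 to PND1, 35 of the 66 fell (53.0%, against 27.7% of all genes) and 7 rose (10.6%, against 25.4%), with a median of -0.405 against -0.039. Cell type markers moved over the same step in controls. From ED17.5 to PND1 the germ cell sum went from 689 to 899 CPM to 1733 to 2329 CPM. The endothelial sum went from 536 to 603 CPM to 378 to 421 CPM, that of stroma and theca precursors from 7258 to 11770 CPM to 5068 to 5544 CPM, and that of erythroid cells from 3072 to 6439 CPM to 206 to 1360 CPM. Their part in the age change of the guidance genes was not tested. The 4 falls with the smallest p were those of Slit2 (-1.17 ± 0.08), Epha7 (-1.31 ± 0.11), Plxna3 (-0.93 ± 0.09) and Unc5c (-1.29 ± 0.13), with adjusted p of 5.28e-11, 3.94e-10, 5.84e-09 and 1.7e-08 (edgeR). All 3 ephrin-B genes fell, as did both neuropilins and 4 of the 5 ephrin-A genes. Without ED17.5 control replicate 3, the library with the high stroma sum, Efna5 was at -0.31 (adjusted p = 0.267) and Efnb2 at -0.15 (0.216), and Ntn1, Epha1, Epha3 and Sema3e also lost their fall. Efna4 lost it without ED17.5 control replicate 1 (-0.22, 0.116). Without ED17.5 replicates 1 and 3 of both groups 28 members fell and 6 rose. The 7 that rose were Plxnc1 (1.01 ± 0.13), Sema3c (0.49 ± 0.11), Epha10, Epha8, Ephb6, Ntn4 and Unc5d. Without ED17.5 control replicate 2, Epha8, Ephb6 and Ntn4 lost that call, and 4 remained. From PND1 to PND4, 15 rose (22.7%, against 16.3%) and 12 fell (18.2%, against 15.6%). The changes with the smallest p were those of Nrp2 (0.84 ± 0.10), Sema3c (0.87 ± 0.11), Sema5b (-0.79 ± 0.12) and Ephb6 (0.42 ± 0.07), with adjusted p of 1.35e-06, 1.57e-06, 2.16e-05 and 9.16e-05 (edgeR). Leaving out PND1 control replicate 1 or PND4 control replicate 3 reduced the 15 to 9. The 2 steps share the PND1 controls, so opposite values in them, as for Sema3g (-1.20 ± 0.27, then 1.40 ± 0.26), Sema3e (-0.95 ± 0.29, then 1.06 ± 0.29) and Sema6b (-0.90 ± 0.27, then 1.12 ± 0.27), rest in part on the same libraries.

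Levels were compared between genes per kilobase of the longest transcript (CPM per kb), in PND4 controls. Plxnb2, a receptor of class 4 semaphorins, had the highest level of all members at 65.8 ± 4.8 (SD, n = 4), followed by Plxnc1 at 48.2 ± 3.5. Next came Efnb1 at 38.3, Ephb4 at 35.2 and Sema3c at 33.2, whose ranges over the 4 libraries overlapped. Within families, Slit2 (11.7 CPM per kb) stood above Slit3 (4.53), and Unc5b (4.89) above Unc5c (2.93). Robo1 (5.39) stood above Robo4 (2.28), with Robo2 between them, and Nrp1 (9.98) above Nrp2 (6.82). In none of these pairs did the libraries of the higher and the lower gene overlap. With the length of all exons of a gene in place of the longest transcript, Nrp2 (3.87) stood above Nrp1 (3.72), and no other family changed its top member. The lowest levels were those of Slit1 (0.0295) and Plxnb3 (0.0562 to 0.193 over the libraries).

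**Figure D4:**
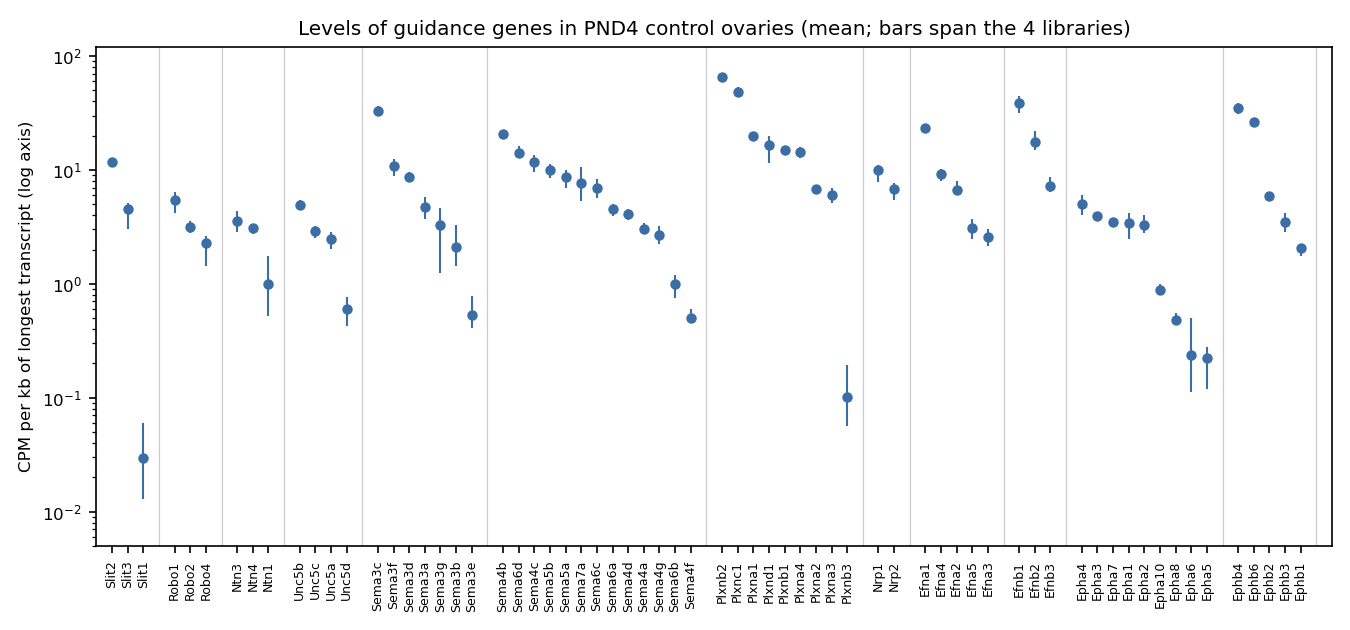
Level of each guidance gene in PND4 control ovaries as CPM per kb of the longest transcript (y axis, log scale), points are means and bars span the 4 libraries, ordered by level within a family and separated by lines between families. Plxnb2 is highest at 65.8 and Slit1 lowest at 0.0295.

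Other genes of these pathways were taken from lists chosen with earlier results in view. Among 22 tested receptors and ligands outside the rule, 6 were higher and 1 lower in ED17.5 cKO ovaries, PND1 had 10 higher and 2 lower, and PND4 9 higher and 2 lower, with medians of 0.14, 0.38 and 0.26. The higher shares were 27.3%, 45.5% and 40.9%, against 11.1%, 13.2% and 12.6% of all genes, and the lower shares 4.55%, 9.09% and 9.09%, against 12.0%, 10.7% and 10.3%. Dcc, the attractive netrin receptor, rose by 0.51 ± 0.17, 0.67 ± 0.17 and 0.98 ± 0.18 (adjusted p = 0.0303, 0.00403 and 0.000185, edgeR) from control means of 5.21, 4.72 and 3.07 CPM. Rgma, a repulsive ligand of neogenin, rose by 1.12 ± 0.17, 1.65 ± 0.18 and 1.09 ± 0.17, while Neo1, which encodes neogenin, passed at no age. Chl1, a cell adhesion molecule of the L1 family, rose by 1.21 ± 0.22, 1.91 ± 0.23 and 1.63 ± 0.23, and Dscaml1 by 1.81 ± 0.30 at ED17.5 and 2.65 ± 0.29 at PND4. Ntng2, a membrane-anchored netrin relative, fell by 1.09, 1.67 and 2.06 on the log2 scale. Among 45 intracellular effectors, 9 were higher and 9 lower at ED17.5, PND1 had 14 higher and 9 lower, and PND4 9 higher and 8 lower, with medians of 0.09, 0.00 and -0.01. Against the same background, these were 20%, 31.1% and 20% higher and 20%, 20% and 17.8% lower. Rnd3, an atypical small GTPase, rose by 0.64 ± 0.10, 0.90 ± 0.10 and 0.91 ± 0.10, as did Grb10 by 0.53 ± 0.08, 0.93 ± 0.08 and 0.84 ± 0.08. Vav2, an exchange factor used by Eph receptors, changed by -0.61 ± 0.09, -0.79 ± 0.09 and -0.76 ± 0.09.

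Markers of several cell types moved along with genotype. Over all genes tested, 11.1%, 13.2% and 12.6% were higher in cKO at the 3 ages in order, and 12.0%, 10.7% and 10.3% lower. Of 12 endothelial markers, 6 rose at ED17.5, 11 at PND1 and 12 at PND4 (50%, 91.7% and 100%). None fell, and the medians were 0.47, 0.82 and 0.92. Their summed level was 536 to 603 CPM in ED17.5 controls and 745 to 861 CPM in cKO, 378 to 421 against 658 to 706 CPM at PND1, and 368 to 508 against 719 to 876 CPM at PND4. Among members known from endothelium, Robo4, Plxnd1 and Sema3g rose by 1.15, 1.09 and 0.74 at PND4, the Sema3g call ending in 4 of 24 omissions. Efnb2 (0.26 ± 0.10), Unc5b (0.07 ± 0.09) and Ephb4 (0.13 ± 0.07) did not pass there. Of 4 tested lymphatic endothelial markers, 1 was higher and 1 lower at each age (25% each), and Ccl21a was at 0 in all libraries. The lymphatic sum was 95.8 to 107 CPM in ED17.5 controls and 77.4 to 98.5 CPM in cKO. It was 137 to 166 against 105.5 to 124 CPM at PND1, and 218 to 225 against 133 to 141 CPM at PND4. After birth the sum was thus lower in cKO without overlap. The median log2 fold changes of the tested markers were 0.24, 0.15 and -0.33, so at PND1 the median and the sum went opposite ways. Stroma and theca precursor markers rose in 12, 12 and 8 of 13 genes (92.3%, 92.3% and 61.5%). Smooth muscle and pericyte markers rose in 5, 10 and 8 of 11 (45.5%, 90.9% and 72.7%). Macrophage and leukocyte markers rose in 9, 10 and 13 of 13 (69.2%, 76.9% and 100%). Markers of pregranulosa cells, where SF-1 is known to be expressed, fell in 11, 10 and 8 of 12 genes (91.7%, 83.3% and 66.7%). Their sum of 1919 to 2552, 1627 to 2100 and 1382 to 1612 CPM in controls stood at 914 to 1256, 1067 to 1181 and 823 to 983 CPM in cKO. Surface epithelium markers were lower in 3, 3 and 4 (33.3%, 33.3% and 44.4%) and higher in 1, 3 and 2 (11.1%, 33.3% and 22.2%) of 9 genes. Of 12 germ cell markers, 1 was higher (8.33%) and 3 lower (25%) at ED17.5 and none was called at PND1 or PND4. Of 10 tested markers of neurons and glia, where guidance genes are best known, 3, 1 and 2 were higher (30%, 10% and 20%) and 1 lower at each age (10%). The lower share at each age and the higher share at PND1 lay near those of all genes. The Sertoli and Leydig list summed to 1877 CPM in the library labelled ED17.5 cKO replicate 3 and to between 49.9 and 122 CPM elsewhere at ED17.5. The part of these cell type shifts in the changes of the guidance genes was not tested.

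**Figure D5:**
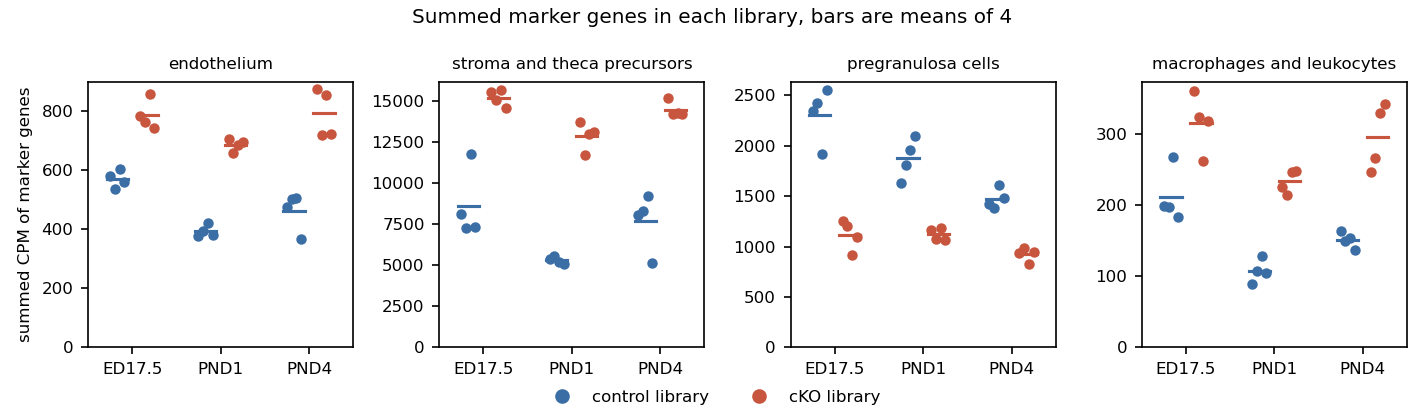
Summed CPM (y axis, from 0) of marker genes of endothelium, stroma and theca precursors, pregranulosa cells, and macrophages and leukocytes in each control (blue) and cKO (red) library at the 3 ages, bars at the mean of 4. Endothelial and stromal sums lie higher and pregranulosa sums lower in each cKO library than in each control of its age.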

How the data were processed

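The authors deposited a table of raw counts, whole numbers per gene without normalization, for 55487 Ensembl genes and 24 whole-ovary libraries. Per the submitters' processing notes the tools were Trimmomatic, STAR, HTSeq and DESeq2 and the build GRCm38. For tool versions, annotation release and strand setting, the sources used here give nothing. Each column was assigned by its library number and title. Coordinates and lengths come from GENCODE M21, which held 99.53% of the gene IDs.

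Genes were filtered with filterByExpr (minimum count 10, minimum total 15), leaving 17435, all 66 members among them. The 6 group means were fitted to all 24 libraries with edgeR 4.0.16 (TMM, glmQLFit robust, glmQLFTest) in R 4.3.3, with Benjamini-Hochberg adjustment over all genes and a threshold of 0.05. An SE is the absolute log2 fold change divided by the root of F and uses the spread shared by all libraries. The procedure was run on simulated counts with changes planted at PND1, drawn independently with the fitted spread of each gene. Those counts held no odd library, so the run cannot speak to calls that rest on a single library. Because libraries are pools, p-values measure the spread between pools.

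The members and all lists were chosen with earlier results of these data known. Per-library CPM are given for the 8 members of smallest p at each age with a mean of at least 1 CPM, up to 3 for each interaction and 4 for each control age step. Values of Slit3, Robo2, Sema3g, Sema7a, Efna5, Ntn1 and Ephb4 were added after their values were seen. Alternatives were DESeq2 1.42.0, DESeq2 size factors, no filter, blocks, subsets of libraries and leaving out each library.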

Additional observations from a re-analysis of the deposited data

Results flagged for a closer look

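In 10 of the 102 groups of 4 libraries checked, over 17 members, 1 library stood apart by Dixon's criterion, which flags about 1 in 20 groups by chance. ED17.5 control replicate 3 was high in 4 members: Slit2 at 337.1 CPM (others 255.3 to 266.7), Nrp2 at 50.16 CPM (36.03 to 38.2), Efnb2 at 93.23 CPM (69.57 to 73.16) and Efnb3 at 48.99 CPM (35.86 to 37.74). Stroma and theca precursor markers were also highest in that library, at 11770 CPM where control replicates 1, 2 and 4 held 7258 to 8085 CPM, and their part in these values was not tested. Robo4 was low in PND4 control replicate 5 at 7.08 CPM (12.44 to 12.99) and high in PND1 control replicate 3 at 12.72 CPM (8.591 to 9.283). Endothelial markers summed to 368 CPM in PND4 control replicate 5 and to 477 to 508 CPM in the other PND4 controls. Single low libraries also held Nrp2 at 22.6 CPM in PND1 control replicate 4 (26.37 to 26.9), Efna1 at 36.43 CPM in PND4 control replicate 2 (38.69 to 38.94), Efnb3 at 51.03 CPM in ED17.5 cKO replicate 2 (53.6 to 53.73) and Ephb6 at 64.61 CPM in PND4 cKO replicate 4 (76.46 to 77.82).

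The genotype effect differed between ages by the interaction test in 9 comparisons over 6 members. On the log2 scale the PND4 effect differed from the ED17.5 effect by 0.89 in Epha7, 0.75 in Unc5c, 0.53 in Efna1, 0.45 in Slit2, -0.31 in Plxnb1 and -0.78 in Nrp2. The PND1 effect differed from the ED17.5 effect by 0.71 in Epha7 and 0.47 in Slit2, and the PND4 effect from the PND1 effect by -0.89 in Nrp2.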

How the results depend on the processing

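No called genotype effect of a member changed direction under any alternative run. Counts of members higher and lower in cKO at the 3 ages in order were 21 and 10, 30 and 11, and 18 and 11 with DESeq2, and 16 and 10, 24 and 10, and 14 and 8 without the low-count filter. Fitting only the libraries compared reduced the members higher at ED17.5 from 20 to 13, and leaving out ED17.5 replicates 1 and 3 of both groups (library numbers 13 to 24) reduced the members whose effect differed between ED17.5 and PND1 from 2 to 0; the second fit has fewer samples at ED17.5. Leaving out 1 library at a time gave 14 to 24 higher and 8 to 12 lower members at ED17.5, 24 to 31 and 8 to 12 at PND1, and 15 to 21 and 7 to 13 at PND4. The same omissions gave 4 to 9 members higher in PND1 than in ED17.5 controls, 9 to 16 higher in PND4 than in PND1 controls, and 1 to 3 whose effect differed between ED17.5 and PND1. Without PND1 control replicate 1 the PND1 calls on Epha1, Sema3d and Sema5a ended (adjusted p = 0.108, 0.11 and 0.151, edgeR). The cause of these shifts was not tested. Deviations of libraries with the same number correlated at -0.384 to 0.222 over 11 pairs, 2 of them above 0.1, so the numbers were not taken to pair them; the 4 ED17.5 pairs were all above 0 (0.0428 to 0.183). With a replicate block, the members higher and lower were 20 and 10 at ED17.5; PND1 had 30 and 10, and PND4 15 and 7. Of the other scalings, DESeq2 size factors moved the median log2 fold change of all genes most, at PND4, from -0.001 to -0.028. Few counts stand behind Slit1 (0 to 1.34 CPM) and Plxnb3 (up to 1.90 CPM), and no genotype difference was detectable for them at this depth.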
